A study of Homo sapiens with 3 samples.

Results

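The 10 genes described here are targets and factors of Wnt/beta-catenin signaling, namely *AXIN2*, *LGR5*, *ASCL2*, *NKD1*, *RNF43*, *ZNRF3*, *TCF7*, *TCF7L2*, *LEF1* and *CTNNB1*. They were taken by name, and every gene probe whose transcript accession matched 1 of them was kept, which gave 16 probes. The expression of these genes was compared among HCT116 cells, an established human colon cancer cell line, that received siRNA #7, siRNA #8 or a control siRNA for 48 h. Both siRNAs are directed at *HOXA5* short RNA, a short transcript of the *HOXA5* locus, and the cells of all conditions were otherwise the same line. Total RNA (400 ng) from each condition was amplified, labeled with Cy3 and hybridized to 1 one-colour SurePrint G3 array, and all 3 arrays lay on 1 slide. With 1 array per condition no difference between conditions has a replicate check and no p-value is given, and the number of arrays limits the precision. Both siRNAs share the same control array, so the difference between siRNA #8 and siRNA #7, which leaves that array out, is given as well.

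In the canonical Wnt pathway, a Wnt ligand bound to Frizzled and LRP receptors stops a cytoplasmic destruction complex from degrading beta-catenin. The stabilized beta-catenin enters the nucleus and activates transcription together with factors of the TCF/LEF family. The pathway maintains stem cells at the base of the intestinal crypt, and most colon cancers carry mutations that activate it. HCT116 cells are known for such a mutation in *CTNNB1* itself. Several of the pathway's direct targets, among them *AXIN2*, *NKD1*, *RNF43* and *ZNRF3*, encode its own inhibitors and form negative feedback loops.

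The siRNA sequences are shown because they define the conditions compared. Each is 21 bases long, and the capitals mark the run of 17 bases that both contain.

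siRNA #7: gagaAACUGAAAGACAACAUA
siRNA #8: AACUGAAAGACAACAUAggcg

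The 2 siRNAs are thus overlapping windows on the same stretch of *HOXA5* short RNA, and their arrays are not readouts of unrelated sequences. *HOXA5* itself was covered by 1 probe, with an intensity of 84.9 in control cells, 52.6 in siRNA #7 cells and 58.5 in siRNA #8 cells. After scaling, siRNA #7 gave a log2 ratio of -0.36 to control siRNA and siRNA #8 gave -0.23, against spot-to-spot SDs of 0.25 and 0.26. It was not tested whether this probe distinguishes the short RNA from the mRNA of *HOXA5*.

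Each intensity given here is the background-subtracted brightness of a probe before any scaling between arrays. The 75th percentile of the gene probes had an intensity of 52.8 in control siRNA cells, 42.1 in siRNA #7 cells and 42.8 in siRNA #8 cells, so a probe with the same scaled level is dimmer on both siRNA arrays. A log2 ratio is the difference of 2 log2 intensities after each array was scaled to its 75th percentile. The spot-to-spot SD printed with it was estimated from probes printed 10 times at like signal. It covers printing and scanning within the arrays and leaves out the variation between cultures. Probes had to be well above background on all 3 arrays to enter a ratio, and 13 of the 16 probes did, which represented 7 of the 10 genes, where 12031 of 21614 genes on the array had such a probe. Of the epithelial and colon markers 7 of 8 were above background on all arrays, the exception being *VIL1* (villin), and of the markers of blood, stroma, endothelium and liver only *COL1A1* was, with an intensity of 48.1 in control cells, 28.2 in siRNA #7 cells and 35.9 in siRNA #8 cells. The part of such a signal in the results was not tested.

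**Figure D1:**
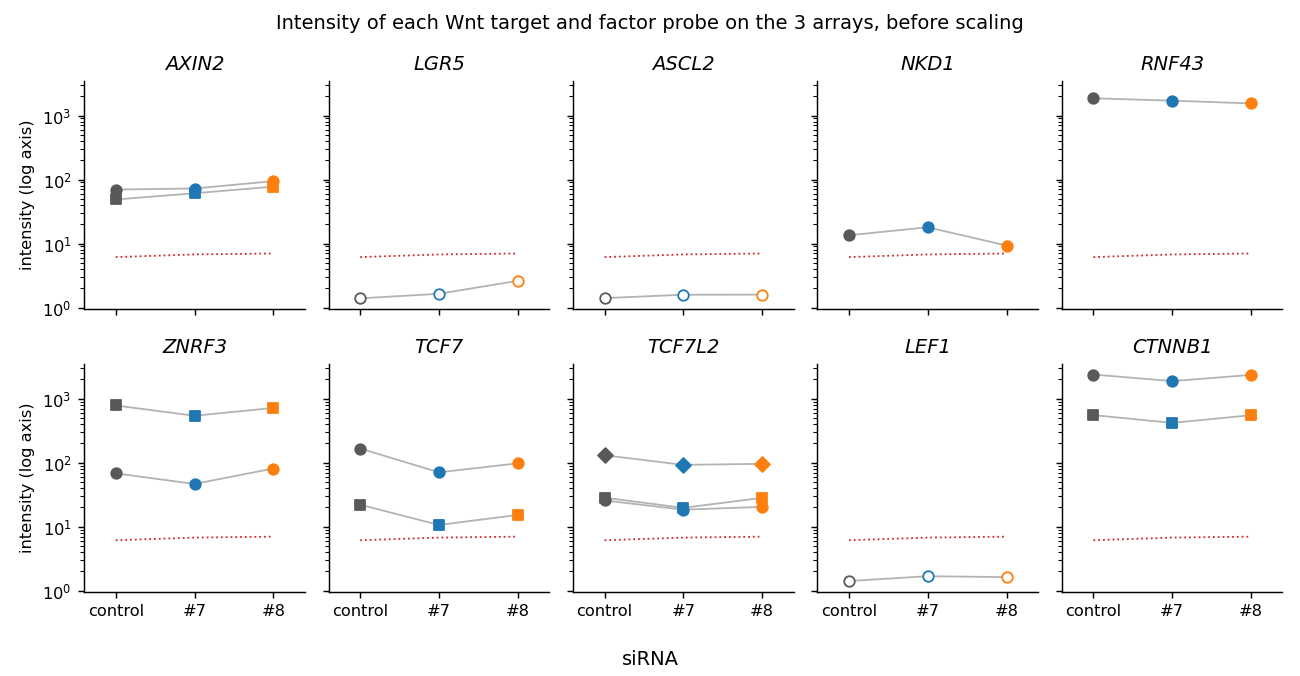
Intensity of the 16 probes (log axis, before scaling) on the control siRNA, siRNA #7 and siRNA #8 arrays, 1 panel per gene and 1 marker shape per probe, with open symbols where the probe was not well above background. The dotted red line marks the lowest intensity among probes above background (6.13, 6.75 and 6.98), and *LGR5*, *ASCL2* and *LEF1* lie under it on all arrays.

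Of the feedback targets, *AXIN2* was higher than control siRNA with both siRNAs at each of its 2 probes, and the larger ratios were those of siRNA #8. AXIN2 is a scaffold of the destruction complex and its gene is widely used as a readout of the pathway. The first *AXIN2* probe had an intensity of 69.7 in control cells, 72.4 in siRNA #7 cells and 94.3 in siRNA #8 cells. For siRNA #7 the log2 ratio to control siRNA was 0.38 (spot-to-spot SD 0.25), and for siRNA #8 it was 0.74, or 1.67-fold (SD 0.24). The second probe, on its own spot elsewhere on the array, had intensities of 48.8, 61.0 and 77.4 in the same order. Its log2 ratios were 0.65 (SD 0.25) and 0.97 (SD 0.26), so that siRNA #7 passed 2 SDs at the second probe and not at the first, and siRNA #8 passed 2 SDs at both. The order of the arrays was thus control siRNA, siRNA #7, siRNA #8 at both probes. The step from siRNA #7 to siRNA #8 was 0.36 at the first probe (SD 0.20) and 0.32 at the second (SD 0.23), and both steps were under 2 SDs. In RNA of a whole culture, a change in the number of cells that express a gene and a change in its RNA per cell cannot be told apart. *AXIN2* remained on the positive side of control siRNA under each of 10 other processing settings, but the size depended on them, since its ratio ranged from 0.025 to 0.52 for siRNA #7 and from 0.37 to 0.85 for siRNA #8. Some settings could hardly move it and are no check of its sign. Its spots carried no outlier flag, its probes passed on all arrays, and the deposited values use the same scaling. The deposited log2 values, outlier spots kept and probes above background on at least 1 array changed it by -0.0015, 0.00075 and 0 for siRNA #7, and by -0.00086, -0.00041 and 0 for siRNA #8.

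*NKD1*, which encodes an inhibitor that binds Dishevelled, differed most between both siRNAs. Its single probe was dim, with an intensity of 13.5 in control cells, 17.9 in siRNA #7 cells and 9.30 in siRNA #8 cells. The log2 ratios to control siRNA were 0.74 for siRNA #7 (SD 0.40) and -0.23 for siRNA #8 (SD 0.41), both under 2 SDs. The siRNA #8 array was lower than the siRNA #7 array by a log2 difference of -0.97 (SD 0.38), or 1.96-fold, which exceeded 2 SDs. Normexp models the background left after the local one was subtracted, and here it adds an offset of 50 to every signal. With it the difference between both siRNAs was -0.22. The offset exceeds the intensities of this probe, and by itself it makes ratios of dim probes smaller, here and in the normexp values below. The size at this low signal thus depends on the processing.

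*RNF43* and *ZNRF3* encode membrane E3 ubiquitin ligases that remove Frizzled receptors from the cell surface. The *RNF43* probe was bright on every array, with an intensity of 1862 in control cells, 1706 in siRNA #7 cells and 1546 in siRNA #8 cells. After scaling, the log2 ratios to control siRNA were 0.20 for siRNA #7 (SD 0.14) and 0.035 for siRNA #8 (SD 0.15), and the difference between siRNA #8 and siRNA #7 was -0.17 (SD 0.15). None of these reached 2 SDs, and scaling on the E1A spike-in controls, which are RNAs added to every sample, turned the first 2 to -0.16 and -0.21. *ZNRF3* had 2 probes. The brighter read 782 in control cells, 541 in siRNA #7 cells and 715 in siRNA #8 cells, and the other read 68.1, 46.5 and 81.0. The siRNA #7 array was the lowest at each probe, but its log2 ratios to control siRNA, -0.21 (SD 0.15) and -0.22 (SD 0.25), were under 2 SDs, and the first turned to 0.035 when the deviation of neighbouring spots was removed. Against control siRNA the siRNA #8 array gave 0.17 (SD 0.17) and 0.55 (SD 0.26), and only the dimmer probe passed 2 SDs, while the former was -0.073 under E1A scaling. The siRNA #8 array was higher than the siRNA #7 array at both, by 0.38 (SD 0.15) and 0.78 (SD 0.23). With the neighbours' deviation removed, the difference between both siRNAs at the brighter probe was 0.16.

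*LGR5*, the R-spondin receptor that marks crypt stem cells, and *ASCL2*, a transcription factor of the same cells, failed to rise well above background on any of the 3 arrays. The *LGR5* probe had an intensity of 1.39 in control cells, 1.64 in siRNA #7 cells and 2.61 in siRNA #8 cells, and the *ASCL2* probe 1.40, 1.58 and 1.59. Since neither was well above background in any condition, no fold is given, and a difference was not detectable at this signal.

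Among the TCF/LEF factors, through which beta-catenin acts on DNA, *TCF7* had the clearest difference. TCF7, also called TCF-1, binds DNA and recruits either beta-catenin or repressors. Its main probe was printed 10 times on each array, which gives a view of the spread within an array that single spots do not. The probe had an intensity of 166 in control cells, 70.6 in siRNA #7 cells and 97.5 in siRNA #8 cells. The scaled log2 levels of its spots were 1.66 ± 0.075 with control siRNA (SD, 9 spots kept, range 1.55 to 1.78), 0.75 ± 0.10 with siRNA #7 (10 spots, 0.58 to 0.93) and 1.19 ± 0.17 with siRNA #8 (10 spots, 0.83 to 1.45). Every kept spot of the control siRNA array was thus above every spot of both siRNA arrays, whereas the spots of the siRNA arrays overlapped each other. The control spot left out by the scanner software's outlier flag lay at 0.95, within the range of siRNA #8 and just above the highest spot of siRNA #7, and with outlier spots kept the log2 ratios to control siRNA were -0.84 for siRNA #7 and -0.40 for siRNA #8. The spots of 1 array are repeats of the same labeled RNA and not replicates of a condition. Of the 598 passing probes printed 10 times, 23.6% had kept spots that did not overlap in the comparison of siRNA #7 with control siRNA. The share was 36.0% for siRNA #8 against control siRNA and 36.8% for siRNA #8 against siRNA #7, so that such a separation of arrays was common. The log2 ratio of *TCF7* to control siRNA was -0.91 with siRNA #7 (SD 0.063), or 1.88-fold lower, and -0.47 with siRNA #8 (SD 0.059), or 1.38-fold lower. The siRNA #8 array was higher than the siRNA #7 array by 0.44 (SD 0.063). The other *TCF7* probe, on a single dim spot, had intensities of 22.0, 10.6 and 15.2 and gave log2 ratios of -0.73 (SD 0.40) and -0.23 (SD 0.41), in the same order of arrays but under 2 SDs. With normexp these were -0.084 and -0.00058, and with the deviation of neighbouring spots removed -0.32 and -0.30. The size at this dim probe thus depended on the processing. Under the 10 other settings the *TCF7* ratio was read from the main probe, or in 1 setting from the mean of both. It ranged from -1.27 to -0.72 for siRNA #7 and from -0.71 to -0.35 for siRNA #8, and it passed 2-fold with siRNA #7 under E1A scaling.

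**Figure D2:**
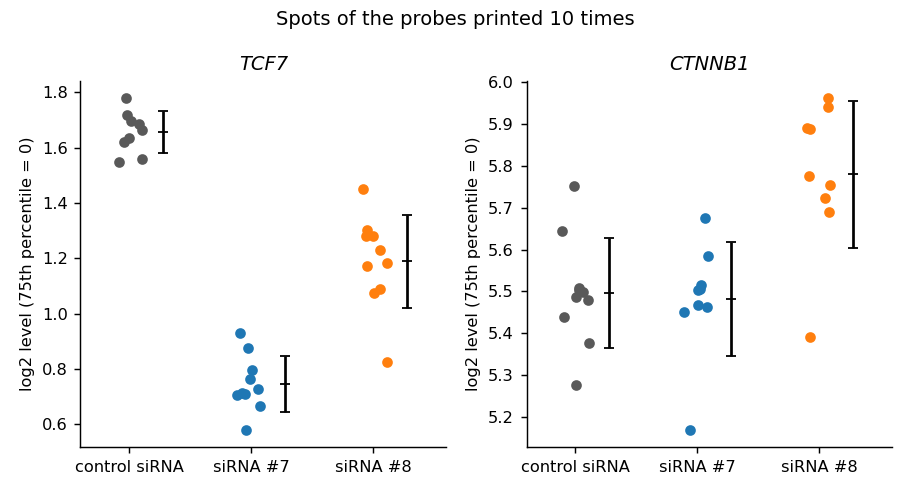
Scaled log2 levels (75th percentile of the array at 0) of the single spots kept after outlier flags of the *TCF7* and *CTNNB1* probes printed 10 times, with the mean and 1 SD of the spots at the right of each array. The 9 kept *TCF7* spots of the control siRNA array (1.55 to 1.78) are separate from those of siRNA #7 (0.58 to 0.93) and siRNA #8 (0.83 to 1.45), while the flagged control spot at 0.95 is not drawn, and the *CTNNB1* spots of all 3 arrays overlap.

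*TCF7L2* encodes TCF-4, the main TCF factor of the intestinal epithelium, and was represented by 3 probes. The brightest, designed on another transcript than the others, had an intensity of 130 in control cells, 92.4 in siRNA #7 cells and 95.9 in siRNA #8 cells. Against control siRNA it gave log2 ratios of -0.17 for siRNA #7 (SD 0.16) and -0.14 for siRNA #8 (SD 0.18), and the difference between both siRNAs was 0.030 (SD 0.17). The other probes had intensities of 25.6, 18.4 and 20.4, and of 28.4, 19.7 and 28.2. Their log2 ratios were -0.15 and -0.20 with siRNA #7 (SD 0.40 each), and -0.027 and 0.29 with siRNA #8 (SD 0.41 each). No *TCF7L2* probe differed between any pair of arrays by 2 SDs, and the probes disagreed on the direction with siRNA #8. *LEF1*, the remaining factor of the family on the list, read 1.41 in control cells, 1.68 in siRNA #7 cells and 1.63 in siRNA #8 cells and was likewise not well above background.

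*CTNNB1*, which encodes beta-catenin, was bright on every array. Its probe printed 10 times had an intensity of 2384 in control cells, 1881 in siRNA #7 cells and 2351 in siRNA #8 cells. The scaled log2 levels of the spots were 5.50 ± 0.13 (SD, 10 spots, 5.28 to 5.75), 5.48 ± 0.14 (9 spots, 5.17 to 5.68) and 5.78 ± 0.18 (9 spots, 5.39 to 5.96), so that the spots of all arrays overlapped. The flagged spot of siRNA #7 lay at 5.01 and that of siRNA #8 at 5.09. The log2 ratios to control siRNA were -0.015 for siRNA #7 (SD 0.046) and 0.28, or 1.22-fold, for siRNA #8 (SD 0.049). The second probe, on a single spot with intensities of 554, 418 and 551, gave -0.078 (SD 0.15) and 0.30 (SD 0.17). With this scaling the ratios of siRNA #7 were within 1 spot-to-spot SD at both probes, but they were -0.37 and -0.43 under E1A scaling and -0.15 and -0.13 with normexp. The siRNA #8 array was above the siRNA #7 array by 0.30 (SD 0.049) and 0.37 (SD 0.15). With E1A scaling the ratio of siRNA #8 to control siRNA was 0.035 at the first probe. These are levels of *CTNNB1* mRNA, and the amount of beta-catenin protein was not measured on these arrays.

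**Figure D3:**
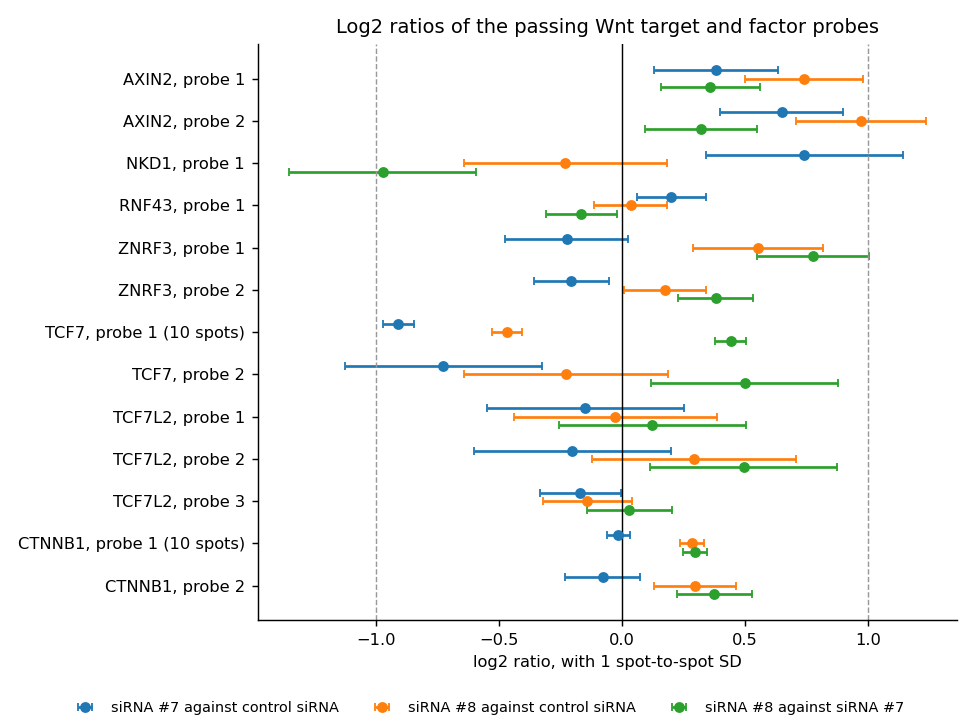
Log2 ratios of the 13 passing probes, with 1 spot-to-spot SD as the bar, for siRNA #7 and siRNA #8 against control siRNA and for siRNA #8 against siRNA #7 (dashed lines, 2-fold). The *AXIN2* probes lie to the right of 0 and the *TCF7* probes to the left in both comparisons with control siRNA, and no point passes a dashed line.

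Counted over the genes, each by its brightest passing probe, none of the 7 measured genes was past 2-fold in any comparison. Among all 12031 genes the share past 2-fold was 3.77% with siRNA #7, 4.98% with siRNA #8 and 5.64% between both siRNAs. With siRNA #7, 3 genes were higher and 4 lower than control siRNA, and *NKD1* and *TCF7* were past 1.5-fold, a threshold that 7.56% of all genes passed as higher and 6.93% as lower. With siRNA #8, 4 were higher and 3 lower, and only *AXIN2* was past 1.5-fold, where 7.79% of all genes were higher and 10.3% lower. Between siRNA #8 and siRNA #7, 5 were higher and 2 lower, and only *NKD1* was past 1.5-fold, where 8.89% of all genes were higher and 11.6% lower. At any size 51.5% of all genes were higher with siRNA #7, 50.8% with siRNA #8 and 48.9% between both siRNAs. The median log2 ratio of the 7 genes was -0.015, 0.035 and 0.30 in these comparisons, against 0.014, 0.0072 and -0.011 over all genes. The split depended on the scaling, since E1A scaling gave 2 higher and 5 lower with each siRNA, and the median of each array gave 3 higher and 4 lower with siRNA #8.

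A difference of at least 2 spot-to-spot SDs was found for *TCF7* with siRNA #7, where 29.7% of all genes had one. With siRNA #8 it was found for *AXIN2*, *TCF7* and *CTNNB1*, where 31.3% of all genes had one. Between both siRNAs it was found for *NKD1*, *ZNRF3*, *TCF7* and *CTNNB1*, where 37.2% of all genes had one. The shares over all genes show how often 2 arrays differ by more than their spots do. They are an unlike background for *TCF7* and *CTNNB1*, which were read from probes printed 10 times. Averaging over spots gave these genes SDs of 0.046 to 0.063, so smaller differences pass. Of the 18121 passing probes only 598 were printed 10 times. The log2 ratios of all genes had SDs of 0.46, 0.49 and 0.51 in the 3 comparisons, and the listed genes beyond 1 such SD were *NKD1* and *TCF7* with siRNA #7, *AXIN2* with siRNA #8, and *NKD1* between both siRNAs.

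**Figure D4:**
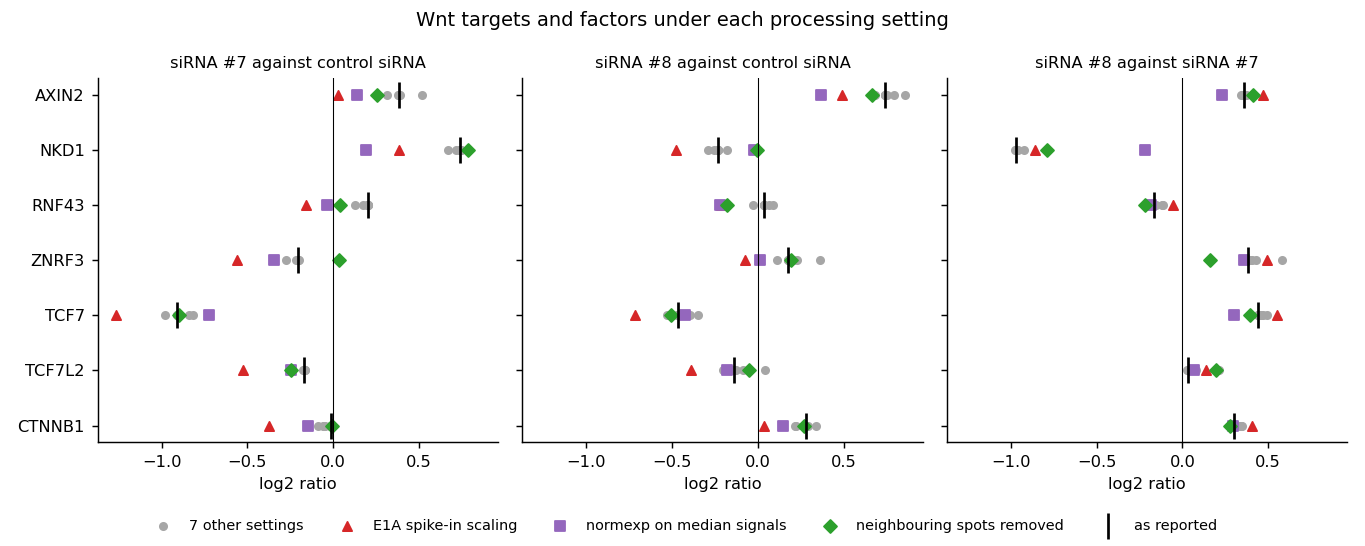
Log2 ratio of each measured gene as reported (black bar) and under 10 other processing settings. The *AXIN2* points stay right of 0 and the *TCF7* points left of 0 in both comparisons with control siRNA, while *RNF43* and *ZNRF3* in both of these comparisons and *TCF7L2* with siRNA #8 have points on both sides, and scaling on the E1A spike-in controls moves the points of both comparisons with control siRNA to the left.

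The promoter windows of the TCF/LEF genes are shown where they hold a binding motif of their own family. The motif was searched as CTTTG followed by A or T at each of the next 2 positions, on both strands, in windows from 250 bases before to 50 after a transcription start (RefSeq, GRCh38.p14). Windows were listed for 5 of the 10 genes, 9 windows in all. A match was found in 2 of them, 1 of 2 for *TCF7* and 1 of 3 for *TCF7L2*, where 13.8% of all 35116 windows of this length held a match. Capitals mark the match, which is CTTTGTT on the opposite strand for *TCF7* and on the printed strand for *TCF7L2*.

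TCF7, chr5:134123368-134123667, plus strand: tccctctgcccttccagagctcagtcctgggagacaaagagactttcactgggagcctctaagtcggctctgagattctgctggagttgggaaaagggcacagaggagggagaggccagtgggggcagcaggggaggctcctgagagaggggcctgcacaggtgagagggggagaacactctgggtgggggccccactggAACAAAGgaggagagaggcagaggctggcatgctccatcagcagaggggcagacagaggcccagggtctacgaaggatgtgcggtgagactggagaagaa
TCF7L2, chr10:113126383-113126682, plus strand: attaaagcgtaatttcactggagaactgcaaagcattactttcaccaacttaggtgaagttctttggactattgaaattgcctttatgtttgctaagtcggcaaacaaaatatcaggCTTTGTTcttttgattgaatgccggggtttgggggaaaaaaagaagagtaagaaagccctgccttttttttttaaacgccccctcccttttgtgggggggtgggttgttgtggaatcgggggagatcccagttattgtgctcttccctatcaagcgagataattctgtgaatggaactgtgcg

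These matches describe the letters of the windows, and whether any factor bound there was not measured.

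The wider pathway was described with 119 other genes in 6 roles, of which 80 had a passing probe. With siRNA #7, 38 were higher and 42 lower than control siRNA, and 2 (2.5%) were past 2-fold. With siRNA #8, 36 were higher and 44 lower, and 4 (5.0%) were past 2-fold, and between both siRNAs 4 (5.0%) were. The shares past 2-fold are near those of all genes given above. At any size 51.5% of all genes were higher with siRNA #7 and 50.8% with siRNA #8. E1A scaling moved the median of all genes by -0.36 with siRNA #7 and -0.25 with siRNA #8. With it the splits of the 80 genes were 13 higher and 67 lower with siRNA #7, and 21 higher and 59 lower with siRNA #8. With the 75th percentile taken over the probes well above background they were 40 higher and 40 lower with siRNA #7, and 44 higher and 36 lower with siRNA #8, so neither majority was independent of the scaling.

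Of the 25 genes for Wnt ligands, R-spondins and ligand release, 9 were measured and 14 were not above background on any array. *WNT3*, a ligand made by crypt Paneth cells, had an intensity of 145 in control cells, 105 in siRNA #7 cells and 57.5 in siRNA #8 cells. Its log2 ratio was -0.14 with siRNA #7 (SD 0.16) and -1.03 with siRNA #8 (SD 0.21), the latter -0.75 with normexp. *WNT3A*, another canonical ligand, had intensities of 49.1, 65.6 and 54.1 and log2 ratios of 0.74 and 0.44 (SD 0.25 and 0.26), or 0.34 and 0.18 with normexp. Of the 9 measured genes 7 were higher with siRNA #7 and 4 with siRNA #8, where 51.5% and 50.8% of all genes were. The median log2 ratio of the 9 genes was 0.28 and -0.014. Neither sign held under every scaling, since the median was -0.077 with siRNA #7 under E1A scaling (4 higher), and with siRNA #8 it was 0.017 after quantile normalization (5 higher) and 0.039 with the percentile over probes above background (6 higher).

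Of the 20 receptors and Dishevelled genes, 18 were measured, with 12 lower than control siRNA with siRNA #7 and 13 with siRNA #8. Of all genes 51.5% were higher with siRNA #7 and 50.8% with siRNA #8. Under E1A scaling, which moved the median of all genes by -0.36 and -0.25, 17 and 16 of the 18 were lower. With the median of each array 14 were lower with siRNA #7. With the percentile over probes above background 11 were lower with siRNA #7 and 12 with siRNA #8. The Frizzled receptor gene *FZD6* had an intensity of 86.1 in control cells, 21.4 in siRNA #7 cells and 54.8 in siRNA #8 cells. It thus had a log2 ratio of -1.68 with siRNA #7 (SD 0.33) and -0.35 with siRNA #8 (SD 0.26), and the siRNA #8 array was higher than the siRNA #7 array by 1.33 (SD 0.31). With normexp the first was -0.84, under 2-fold. *FZD2*, the receptor with the highest mean of both ratios, had 206, 207 and 215, with log2 ratios of 0.33 and 0.37 (SD 0.16 and 0.18), the former -0.024 under E1A scaling.

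Of the 15 secreted and membrane antagonists 5 were measured. *FRZB*, a secreted Frizzled-related protein, was the highest by the mean of both ratios but dim, with intensities of 7.96, 9.73 and 11.6 and log2 ratios of 0.62 and 0.84 (SD 0.40 and 0.41). With normexp these were 0.12 and 0.19. *KREMEN2*, a receptor for Dickkopf proteins, was the lowest, with 472, 314 and 319 and a log2 ratio of -0.26 with both siRNAs (SD 0.15 and 0.18), both under 2 SDs. Under E1A scaling the ratios were -0.62 and -0.51.

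In the destruction complex 13 of 15 genes were measured, and *CSNK1A1* and *CSNK1E* had no matched probe. *AMER1*, a membrane scaffold that binds APC, had an intensity of 27.9 in control cells, 25.9 in siRNA #7 cells and 59.4 in siRNA #8 cells, and its log2 ratio was 0.22 (SD 0.40) and 1.39 (SD 0.35). With normexp the latter was 0.67, under 2-fold, and the former turned to -0.14 under E1A scaling and to -0.20 with the deviation of neighbouring spots removed. *PPP2R5A*, a regulatory subunit of protein phosphatase 2A, had 191, 93.0 and 153, with log2 ratios of -0.71 and -0.024 (SD 0.16 and 0.18), the latter between -0.27 under E1A scaling and 0.053 with the deviation of neighbouring spots removed. Of the 13 measured genes 8 were higher with each siRNA, where 51.5% of all genes were with siRNA #7 and 50.8% with siRNA #8. The median log2 ratio of the 13 genes was 0.11 for siRNA #7 and 0.24 for siRNA #8. Under E1A scaling 1 was higher with siRNA #7 and 6 with siRNA #8, and the medians were -0.24 and -0.0082, whereas with the percentile over probes above background 12 were higher with siRNA #8.

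Among 15 measured of 18 nuclear partners, *TCF7L1*, the TCF factor known mostly as a repressor, had intensities of 54.8, 47.8 and 70.5 and log2 ratios of 0.13 and 0.67 (SD 0.25 and 0.26), the former -0.23 under E1A scaling and -0.11 with the deviation of neighbouring spots removed. *CTNNBIP1*, an inhibitor that keeps beta-catenin from TCF, had 423 in control cells, 184 in siRNA #7 cells and 363 in siRNA #8 cells. This probe gave -0.87 with siRNA #7 (SD 0.15) and 0.084 with siRNA #8 (SD 0.17), whereas its other probe, with 57.2, 49.1 and 31.6, gave 0.11 (SD 0.25) and -0.55 (SD 0.34), so that its probes disagreed in direction with both siRNAs.

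Of 26 other target genes 20 were measured, and 14 were lower and 6 higher than control siRNA with siRNA #8, with 7 lower and 2 higher past 1.5-fold, against 11 lower and 9 higher with siRNA #7 (15 and 5 under E1A scaling), with 1 lower and 2 higher past it. Over all genes 10.3% were lower and 7.79% higher past 1.5-fold with siRNA #8, and 6.93% and 7.56% with siRNA #7. At any size 50.8% of all genes were higher with siRNA #8 and 51.5% with siRNA #7. *CCND1*, which encodes the G1 cyclin D1 and was printed 10 times, had an intensity of 776 in control cells, 714 in siRNA #7 cells and 297 in siRNA #8 cells. Its log2 ratio was 0.21 with siRNA #7 (SD 0.052) and -1.08 with siRNA #8 (SD 0.060), and the siRNA #8 array was lower than the siRNA #7 array by -1.29 (SD 0.053) on the log2 scale. The ratio for siRNA #7 was -0.011 with normexp and -0.15 under E1A scaling, whereas that for siRNA #8 was -1.14 and -1.33. *FGF9*, a fibroblast growth factor, had 92.9, 96.4 and 28.1 and log2 ratios of 0.38 (SD 0.23) and -1.42 (SD 0.34), the latter -0.73 with normexp.

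*MMP7* (matrilysin) was the only gene of the wider lists past 2-fold higher with siRNA #7, with intensities of 19.3, 33.4 and 20.6 and log2 ratios of 1.12 (SD 0.40) and 0.40 (SD 0.41), the former 0.34 with normexp. *SOX4*, a transcription factor, was the highest target by the mean of both ratios, with 107, 144 and 157 and log2 ratios of 0.75 and 0.85 (SD 0.16 and 0.18). After the deviation of neighbouring spots was removed these were 0.0043 and 0.086. *SLC12A2*, a sodium, potassium and chloride cotransporter, was the lowest, with 119, 66.4 and 50.8 and log2 ratios of -0.51 and -0.92 (SD 0.19 and 0.21), or -0.26 and -0.59 with normexp.

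**Figure D5:**
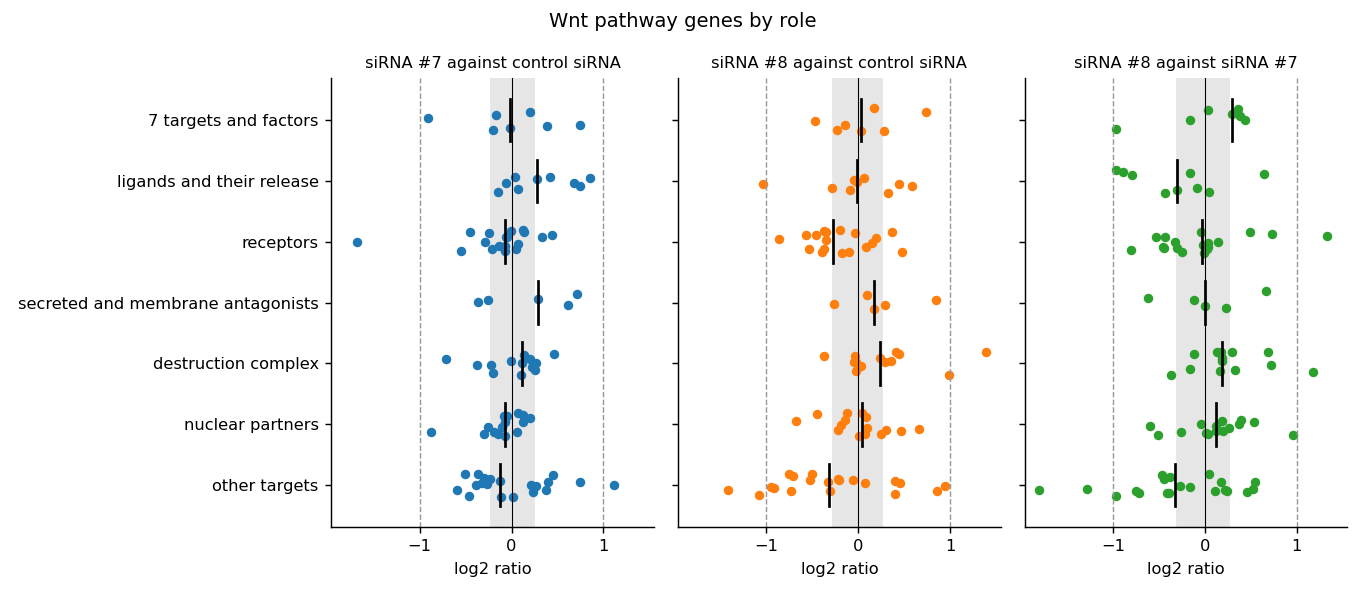
Log2 ratios of the measured Wnt pathway genes by role in the 3 comparisons, 1 point per gene, with the median of each role as a black bar, the interquartile range of all 12031 genes in grey and 2-fold as dashed lines. The 7 targets and factors on the top row stay inside the dashed lines. Among the other targets 14 of 20 genes lie left of 0 with siRNA #8, where 50.8% of all genes lie right of 0.

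The genes with the pair of ratios to control siRNA most like that of *AXIN2* were *MEIS3*, *FAM78B* and *NTNG2*, at Euclidean distances of 0.014, 0.029 and 0.033 on the log2 scale. Likeness over 2 ratios from 3 arrays is weak, since 795 of 12030 other genes lay within 0.35, the combined spot-to-spot SD of the *AXIN2* ratios.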

How the data were processed

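The authors deposited the scanner output of each array, in which, per the file headers, Agilent Feature Extraction 11.5.1.1 lists an intensity per spot, background-subtracted and not scaled between arrays. The authors also deposited a log2 table, whose slope to the intensities is 1, whose shifts match the 75th percentile, and in which each probe is centred on its median. Each array held 62976 spots, 58717 of them for 50599 gene probes. The siRNA numbers follow the sample labels, since the names of the deposited arrays use other numbers.

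From the intensities, spots with outlier flags (313 to 413 per array) were left out, log2 values of a probe's spots were averaged, and the array's 75th percentile was subtracted (Python 3.11.15, numpy 2.4.6, pandas 2.3.3). A passing probe reached the 20th percentile on at least 2 arrays and carried the flag for well above background on at least 50% of its spots on all 3, as 18121 probes did. From 19069 to 20473 probes were above background per array, and no spot was saturated. The brightest passing probe stood for a gene. The spot-to-spot SD came from probes printed 10 times in 6 signal ranges and was divided by the square root of the spots kept (pooled SD 0.15 to 0.18 per array). Probes were named through RefSeq (GRCh38.p14), without versions, and 30004 matched. The array design used an older build, so no gene coordinates are given. The siRNA sequences came from the study's supplementary list. The steps were tested on simulated data.

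The genes and lists were chosen with earlier results of these data known. Named were all 10 genes with all probes, the other pathway genes past 2-fold in any comparison and, per role, the highest and lowest by the mean of both ratios, *HOXA5*, and the 3 genes nearest *AXIN2*. The alternatives were quantile normalization, the array median, the 75th percentile of detected probes, E1A spike-in scaling, normexp with an offset of 50 (limma 3.58.1, R 4.3.3), the deposited log2 values, removal of the median deviation of neighbours within 3 rows and 3 columns, outlier spots kept, probes above background on at least 1 array, the mean of a gene's probes, and a 1.5-fold threshold.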

Additional observations from a re-analysis of the deposited data

How the results depend on the processing

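Every value rests on single arrays, and for dim probes such as that of *NKD1* the signal over background limits the precision. No paired analysis was possible because there is only 1 array in a condition. The median log2 ratio of the 7 genes with siRNA #7 was -0.37 with E1A scaling and changed sign to 0.035 with the neighbours' deviation removed. With siRNA #8 it changed sign to -0.025 with the array median, -0.21 with E1A scaling, -0.025 with normexp and -0.0066 with the neighbours' deviation removed. E1A scaling moved the median of all genes by -0.36 with siRNA #7, -0.25 with siRNA #8 and 0.11 between both siRNAs, and normexp moved it by -0.12 with each siRNA against control siRNA. The median between both siRNAs stayed positive under the 10 settings. Of these, the deposited log2 values and the probes above background on at least 1 array could hardly change it.

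Past 2-fold, the count of the 7 genes with siRNA #7 was 1 with E1A scaling, where 762 of all 12031 genes were past 2-fold. At 1.5-fold the count of the 7 genes was 2 with siRNA #7, 1 with siRNA #8 and 1 between both siRNAs. Of the 80 other pathway genes, normexp left 0 past 2-fold with siRNA #7, 1 with siRNA #8 and 1 between both siRNAs. Of all 12031 genes it left 165, 221 and 184 in the same order. Removal of the neighbours' deviation gave 7 of the 80 genes between both siRNAs, and 595 of all genes. E1A scaling moves all genes of a comparison by the same amount, and the normexp offset makes ratios of dim probes smaller. Why the spike-in controls and the gene probes scale the arrays differently was not tested, nor was the cause of the other shifts.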
